A study of Homo sapiens with 6 samples.

Results

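The ADAM, ADAMTS and ADAMTSL genes were followed in HPSE-knockdown SW480 cells. Members were the rows of the deposited table whose Ensembl identifier carries a symbol made of ADAM, ADAMTS or ADAMTSL and a number. This gave 28 of the 59192 features in the table, 13 ADAM, 12 ADAMTS and 3 ADAMTSL genes. Of these 28 members, 14 had a mean of at least 10 normalized counts over the 6 libraries and entered the test, while 14 did not. Another 18 family symbols, ADAM15, ADAM17, ADAMTS1 and ADAMTS5 among them, had no row under an identifier of their own and were not analysed here. The table also holds 33265 assembler loci without a gene symbol, and whether these genes lie among them was not tested. A missing row is thus no measure of their level.

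SW480 cells come from a human adenocarcinoma of the colon. RNA was sequenced from 3 libraries labelled SW480-45, with the genotype HPSE-knockdown, and 3 labelled SW480-NC, the control, each from an independent experiment. Both lines stably express Cas9 after puromycin selection and carry a lentiviral guide RNA vector with EGFP. The guide of SW480-45 targets HPSE, the gene of heparanase, and that of SW480-NC is a control. In the paper the sequenced knockdown line is called SW480-KD1, and whether the lines are clones is not given in the sources used here. The values are normalized counts, that is, read counts divided by a size factor for each library, and the libraries held 33221323 to 39802365 reads. HPSE had 136, 172 and 146 normalized counts in SW480-45 and 270, 295 and 246 in SW480-NC. The mean was thus 56.1% of the control, and the adjusted p of HPSE was 0.0547 in the limma fit described further on. The paper assessed the knockdown by western blot of the protein, which these RNA counts do not measure. The colon epithelial markers EPCAM, KRT8, KRT19 and VIL1 were abundant, with a summed level including CDX2 of 106664 to 127970 normalized counts per library. CDX2 itself had 19.0 to 40.3 normalized counts. The leukocyte marker CD14 had at most 46.7 normalized counts. The 3 endothelial markers, PECAM1, VWF and CDH5, summed to 28.0 to 43.2 in SW480-45 and 12.6 to 26.5 in SW480-NC, and CDH5 was at 0 in 5 libraries. The 4 fibroblast markers with a row, of 5, summed to 279.8 to 387 in SW480-45 and 229 to 264 in SW480-NC. COL1A1 made up 89.7% of that sum, while COL1A2 was at 0 in 5 libraries and LUM in 4. Both sums were thus higher in SW480-45 without overlap.

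ADAM proteins are membrane-anchored enzymes that cut other membrane proteins close to the cell surface, a step called ectodomain shedding that releases growth factors, cytokine receptors and adhesion molecule fragments. ADAMTS proteins are secreted relatives with thrombospondin repeats, and they act on the extracellular matrix, where they cut proteoglycans, process procollagen or cleave von Willebrand factor. ADAMTSL proteins keep the thrombospondin repeats but have no protease domain, and they bind matrix fibrils. Both kinds of protease hold a zinc ion with histidines of a short conserved stretch, and several ADAM genes have lost these residues.

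The coding DNA of this stretch is shown for 7 of the members tested, because it separates those that encode a protease from those that do not. Sequences are from the longest complete coding sequence of each gene in GENCODE 29 on GRCh38. Each has 11 codons, and capitals mark the codons of 1 glutamate and of the histidines that hold the zinc.
ADAM19: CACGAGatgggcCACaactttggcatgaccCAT
ADAM8: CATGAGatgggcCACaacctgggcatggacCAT
ADAM10: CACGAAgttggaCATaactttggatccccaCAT
ADAMTS6: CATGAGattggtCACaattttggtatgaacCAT
ADAMTS9: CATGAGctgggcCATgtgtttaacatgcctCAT
ADAMTS13: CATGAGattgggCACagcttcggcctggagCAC
ADAM22: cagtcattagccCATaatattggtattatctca
In ADAM19 the stretch lies in one exon at chr5:157505734-157505766, on the minus strand, and codes for residues from position 345 of 955. In ADAM8 it lies in one exon at chr10:133271880-133271912, also on the minus strand. The others are split by an intron, and span chr15:58627881-58633225 in ADAM10, chr5:65300116-65329394 in ADAMTS6 and chr3:64651148-64654369 in ADAMTS9, all on the minus strand, and chr9:133426329-133428649 on the plus strand in ADAMTS13. In ADAM22 the stretch aligned to that of ADAM19 is at chr7:88134365-88134397, on the plus strand, and keeps 1 of the 4 residues. ADAM9, ADAMTS14 and ADAMTS17 also kept all 4. No such stretch was found in ADAM11 and ADAM32, ADAMs without an active protease site, or in ADAMTSL2 and ADAMTSL4.

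Shedding enzymes made up most of the RNA of the 28 members. ADAM9 had 10556, 10063 and 11416 normalized counts in SW480-45 and 10738, 10236 and 10223 in SW480-NC. ADAM9 is a widely expressed sheddase, and its share of the family's summed normalized counts was between 49.9% and 54.3% in every library. To allow for gene length, normalized counts were also divided by the kilobases of annotated exon. This length joins the exons of all annotated transcripts, 6.913 kb for ADAM9 and 16.168 kb for ADAM10, so the levels depend on the annotation. ADAM9 had 1524 normalized counts per kilobase, which was 65.5% of the summed level of the 28 members. ADAM10, the sheddase that starts Notch signalling and cuts E-cadherin, came next with 353, followed by ADAM19 with 159 and ADAM22 with 103 normalized counts per kilobase, the last with 1 low library described further on. Among the 28 members, ADAMTS6 was the highest of the secreted proteases, at 68.9 normalized counts per kilobase. ADAM8 followed at 52.1, and in SW480-NC the gap between ADAMTS6 and ADAM8 was smaller than the SD of ADAM8. ADAMTS13 and ADAMTS9, at 21.9 and 20.4 normalized counts per kilobase, had opposite orders in the lines. In SW480-45 ADAMTS13 was the higher, at 25.8 ± 5.04 against 17.6 ± 1.73 (SD, n = 3). In SW480-NC ADAMTS9 was the higher, at 23.1 ± 2.68 against 18.0 ± 1.85 (SD, n = 3). ADAMTS17 had 6.94 normalized counts per kilobase, and the remaining members tested had between 1.72 and 3.96. Among these, ADAM11, ADAMTSL2 and ADAMTSL4 differed from one another by less than the SD between libraries. The family as a whole did not separate the lines, with a sum of 19988 ± 938 (SD, n = 3) normalized counts in SW480-45 and 20163 ± 775 (SD, n = 3) in SW480-NC. In such bulk RNA, fewer cells expressing a gene and less RNA per cell cannot be told apart.

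**Figure D1:**
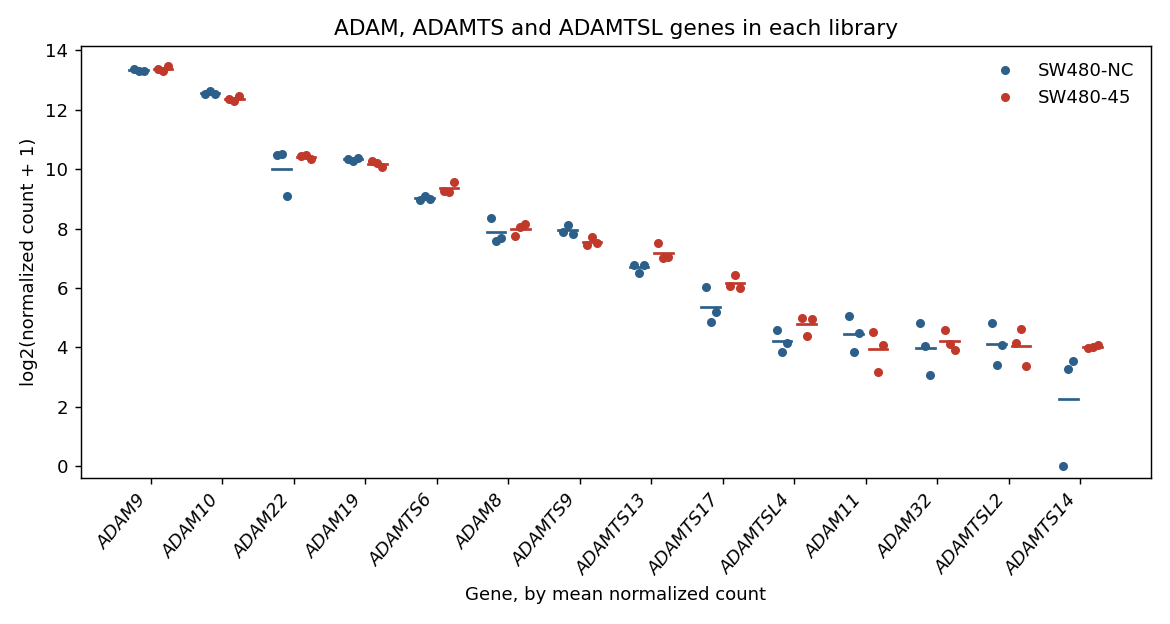
Each point is 1 library, with log2(normalized count + 1) on the y axis, the 14 members tested on the x axis and a bar at the mean of 3 libraries. ADAM9 and ADAM10 lie highest in both lines, 1 SW480-NC library of ADAM22 lies far below the other 5, and 1 SW480-NC library of ADAMTS14 is at 0.

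The knockdown and control lines were compared with limma on log2(normalized count + 1) over the 21703 features whose mean reached 10 normalized counts, with Benjamini-Hochberg adjustment over all of them. The difference of the group means on that scale is called log2FC here, and above 0 the level was higher in SW480-45. At an adjusted p under 0.05 from limma, 0 of the 14 members passed, against 0.802% of all features. The lowest adjusted p was 0.230, for ADAMTS6. edgeR and DESeq2 on the recovered reads also passed 0 members, against 0.627% and 3.48% of all features. In DESeq2 the 5 members with a mean under 25 normalized counts had no adjusted p and so could not pass. At an unadjusted p under 0.05, 5 of the 14 passed in limma, where 16.2% of all features did, and 4 passed in edgeR and 4 in DESeq2, where the shares of all features were 15.9% and 13.6%. These 5 were ADAMTS6, ADAMTS13 and ADAMTS17, higher in SW480-45, and ADAM10 and ADAMTS9, lower in SW480-45. With at least 2-fold change as well, 0 members remained, against 2.42% of all features. The libraries of the lines did not overlap for 6 of the 14 members, 3 in each direction, against 23.4% of all features. The median log2FC was 0.17 over the 14 members and −0.0048 over all features. Leaving out SW480-NC replicate 3 gave a median of −0.022, and leaving out SW480-NC replicate 1 gave 0.33. The median was 0.04 over the 7 ADAM members tested, with 4 higher and 3 lower, and 0.50 over the 5 ADAMTS members, with 4 higher and 1 lower. Exact permutation tests of single genes with 3 libraries against 3 cannot go below p = 0.1.

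**Figure D2:**
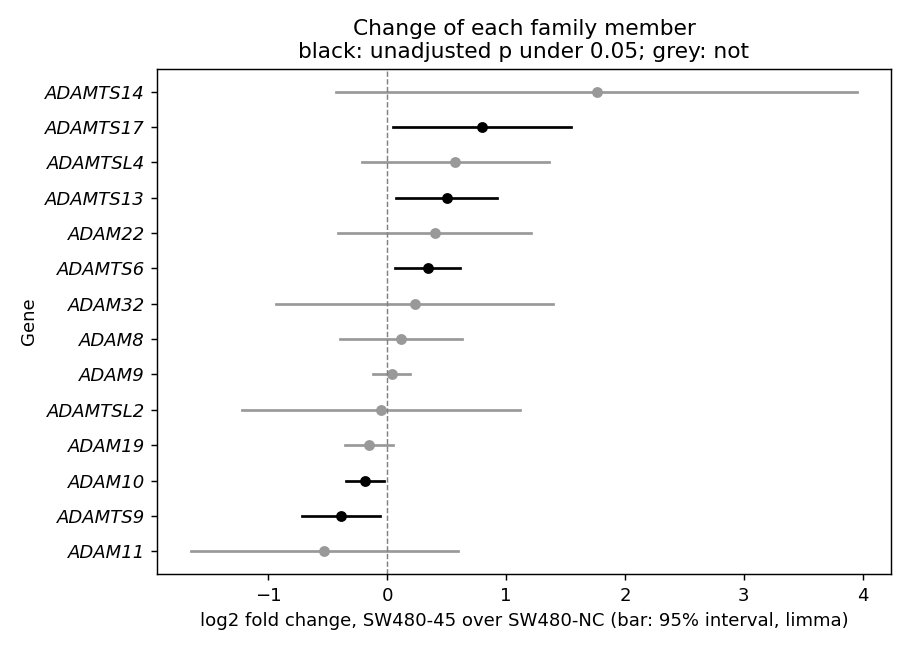
Points are log2FC of SW480-45 over SW480-NC on the x axis, bars are 95% intervals from limma, and the 14 members are on the y axis in order of change. The 5 black members have an unadjusted p under 0.05, and the intervals are narrowest for ADAM9 and ADAM10 and widest for ADAMTS14.

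Among the sheddases, ADAM10 (ENSG00000137845), on the minus strand of chromosome 15 from 58588807 to 58749978, had 5239, 5090 and 5661 normalized counts in SW480-45 and 5905, 6327 and 5982 in SW480-NC. All 3 SW480-45 libraries were below all 3 SW480-NC libraries. On average ADAM10 had 5330 ± 296 (SD, n = 3) in SW480-45 and 6071 ± 225 (SD, n = 3) in SW480-NC, with log2FC = −0.19 (standard error, SE, 0.07, unadjusted p = 0.0261 and adjusted p = 0.243 from limma). Its 95% interval ran from −0.35 to −0.03. ADAM10 kept an unadjusted p under 0.05 in 3 of 6 fits with 1 library removed. It also did so in 6 of the 10 fits with other settings or methods. After quantile normalization the p of ADAM10 from limma was 0.111. An antisense gene, AC018904.1, overlaps ADAM10 and shares 0.84% of its exon bases. It had a mean of 26.1 normalized counts, and the library kit as named does not mark the strand.

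ADAM19, a sheddase of neuregulin, had 1229, 1172 and 1075 normalized counts in SW480-45 and 1293, 1242 and 1332 in SW480-NC. Its libraries did not overlap either, with log2FC = −0.15 (SE 0.09, adjusted p = 0.422 from limma). ADAM9 did not separate the lines. Its log2FC was 0.04, and its 95% interval, from −0.12 to 0.19, was the narrowest of the family. ADAM8, a sheddase best known from leukocytes, had 217, 266 and 285 normalized counts in SW480-45 and 327, 192 and 206 in SW480-NC. The groups overlapped, and SW480-NC replicate 1 was the highest of the 6 libraries. The 95% interval of its log2FC ran from −0.40 to 0.63.

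ADAM22 encodes a protease-dead ADAM that binds LGI proteins at synapses. It had 1394, 1421 and 1304 normalized counts in SW480-45 and 1413, 1468 and 543 in SW480-NC. SW480-NC replicate 3 stood apart, at 38.8% of the mean of the other 5 libraries, which was 1399.9 ± 60.2 (SD, n = 5). The log2FC was 0.40 with all libraries and −0.07 without SW480-NC replicate 3 (adjusted p = 0.615 and 0.707 from limma). In the 7 other genes within 1 Mb of ADAM22 that had a mean of at least 50 normalized counts, SW480-NC replicate 3 lay between −0.43 and 0.08 from the median of the 6 libraries on the log2 scale, against −1.37 for ADAM22. The lowest of these was STEAP4, where all 3 SW480-NC libraries were below all 3 SW480-45 libraries. Such isolated low values were found in every library. Between 11 and 18 features per library had less than 50% of the lowest value of the other 5 libraries, where all of those 5 had at least 500 normalized counts. There were 18 each in SW480-NC replicate 3 and SW480-45 replicate 2. In all, 8621 features had at least 500 normalized counts in at least 5 libraries. The part of the counting step in these values was not tested.

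**Figure D3:**
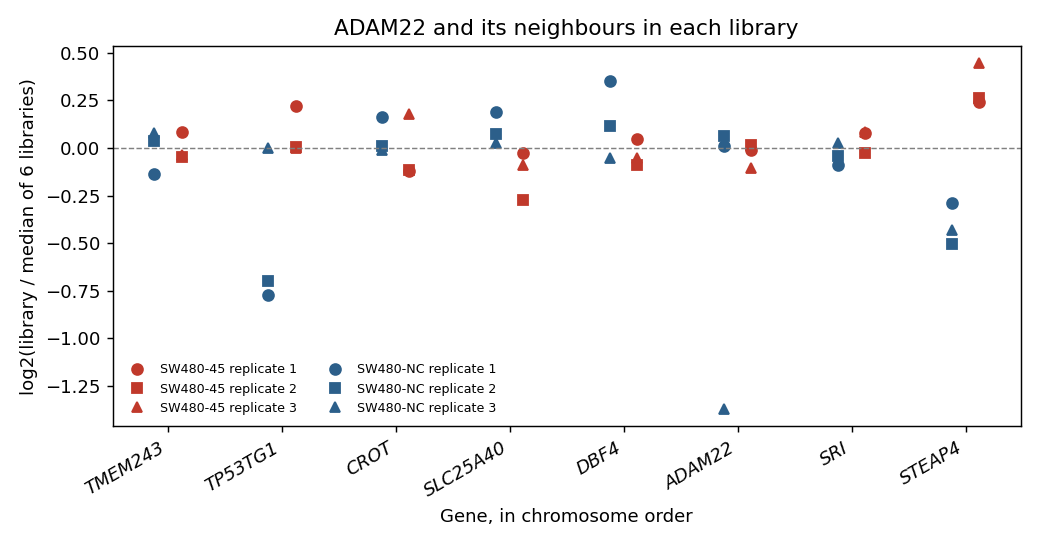
The y axis gives the log2 ratio of each library to the median of the 6 libraries for ADAM22 and the genes beside it, in chromosome order on the x axis. SW480-NC replicate 3 lies at −1.37 for ADAM22 and between −0.43 and 0.08 for its neighbours.

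The other protease-dead ADAMs were close to the lower limit of the test. ADAM11, a brain ADAM, had 22.1, 8.13 and 16.0 normalized counts in SW480-45 and 32.4, 13.5 and 21.2 in SW480-NC. ADAM32, known mainly from testis, had 23.2, 16.3 and 14.1 in SW480-45 and 27.2, 15.5 and 7.42 in SW480-NC. Both genes overlapped between the lines, and their 95% intervals spanned −1.65 to 0.60 and −0.93 to 1.40 on the log2 scale. A 2-fold lower level of ADAM11 and a 2-fold higher level of ADAM32 lay within these intervals.

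Among the secreted proteases, ADAMTS6 (ENSG00000049192), which lies on the minus strand of chromosome 5 from 65148736 to 65481920, is a protease of the microfibril-associated subgroup. It had 621, 602 and 757 normalized counts in SW480-45 and 494, 552 and 512 in SW480-NC. Every SW480-45 library was above every SW480-NC library, and replicate 3 of SW480-45 was the highest. The mean was 660 ± 84.7 (SD, n = 3) in SW480-45 and 519 ± 30.02 (SD, n = 3) in SW480-NC, with log2FC = 0.34 (SE 0.12, unadjusted p = 0.0220 and adjusted p = 0.230 from limma). Removing each library in turn gave values between 0.24 and 0.40, and the unadjusted p stayed under 0.05 in 3 of the 6 fits.

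ADAMTS9 (ENSG00000163638), on chromosome 3 from 64515654 to 64688000, encodes a proteoglycanase that cleaves versican and aggrecan. It had 173, 209 and 183 normalized counts in SW480-45 and 236, 279 and 225 in SW480-NC. It was the only ADAMTS member tested that was lower in SW480-45, and its groups did not overlap. The log2FC was −0.39 (SE 0.14, unadjusted p = 0.0257 and adjusted p = 0.241 from limma), and it lay between −0.46 and −0.30 when each library was left out. In these fits ADAMTS9 kept an unadjusted p under 0.05 in 3 of 6.

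ADAMTS13 (ENSG00000160323), on chromosome 9 from 133414358 to 133459402, encodes the protease that cleaves von Willebrand factor. It had 180, 129 and 132 normalized counts in SW480-45 and 110, 90.8 and 108 in SW480-NC. The groups did not overlap, and SW480-45 replicate 1 was the highest by 48.4 normalized counts. The log2FC was 0.50 (SE 0.18, unadjusted p = 0.0264 and adjusted p = 0.243 from limma), and it was 0.34 without SW480-45 replicate 1, with an unadjusted p of 0.0969. The gene REXO4 overlaps ADAMTS13 on the opposite strand, shares 0 annotated exon bases with it, and had log2FC = −0.03.

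ADAMTS17, whose protease is linked to fibrillin microfibrils, had 66.4, 84.9 and 63.1 normalized counts in SW480-45 and 64.9, 28.0 and 36.1 in SW480-NC. The groups overlapped through SW480-NC replicate 1. The log2FC was 0.80 (SE 0.32, unadjusted p = 0.0398 and adjusted p = 0.284 from limma). Removing SW480-NC replicate 1 gave 1.13, removing replicate 2 of the same line gave 0.54, and only the first of the 6 fits without 1 library kept an unadjusted p under 0.05. ADAMTS14, a procollagen N-propeptidase, had 14.8, 15.4 and 16.0 normalized counts in SW480-45 and 0, 8.69 and 10.6 in SW480-NC, from 14, 17 and 17 reads against 0, 9 and 10. Its groups did not overlap. The log2FC of 1.76 (SE 0.94, adjusted p = 0.402 from limma) was 0.63 without the SW480-NC replicate 1 library at 0 and 0.99 with a pseudocount of 5.

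The 2 ADAMTS-like members tested were at low levels. ADAMTSL4, a microfibril-binding protein, had 30.6, 19.9 and 30.1 normalized counts in SW480-45 and 23.0, 13.5 and 16.97 in SW480-NC. Its log2FC was 0.57, with a 95% interval from −0.22 to 1.36. ADAMTSL2 had between 9.42 and 23.5 normalized counts in SW480-45 and between 9.66 and 27.2 in SW480-NC. Both overlapped between the lines, and the log2FC of ADAMTSL2, −0.05, turned positive without SW480-45 replicate 3 and without SW480-NC replicate 1.

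All 14 members with a mean under 10 normalized counts had a 0 in at least 1 library, and none of them had more than 15 reads in a library. A count of 0 is 0 reads in that library, and a gene with up to 3 reads expected could still give 0. Over the 6 libraries these 14 members held between 2 and 44 reads in all, and 6 of them had reads in 1 library only. ADAMTS7, a protease of cartilage oligomeric matrix protein, had the highest mean of these, with 5, 15 and 15 reads in SW480-45 and 0, 4 and 5 in SW480-NC. ADAMTSL3 had 0, 4 and 0 reads in SW480-45 and 9, 10 and 7 in SW480-NC, and was the only one of the 14 whose groups did not overlap. ADAM12, an ADAM of muscle and bone development, had 7, 5 and 11 reads in SW480-45 and 0, 7 and 0 in SW480-NC. ADAM28 had 11 reads in SW480-45 replicate 3 and none elsewhere. The proteoglycanases ADAMTS4, ADAMTS8 and ADAMTS20 had at most 8 reads in any library.

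The proteins that mature, inhibit or are cut by these enzymes were taken as 8 lists of 61 genes, of which 49 had a row and 41 were tested. In limma 12 of the 41 had an unadjusted p under 0.05, 11 of them lower in SW480-45, against 8.15% of all features that were lower and 8.1% that were higher. At an adjusted p under 0.05, 3 passed, all lower, against 0.47% of all features. The median log2FC over the 41 was −0.04. The lists were chosen with earlier results of these data known. IL6R, among the 11 lower, is in the study's own gene lists, so these shares are not independent evidence of a direction. No partner had an adjusted p under 0.05 without SW480-45 replicate 1, without SW480-45 replicate 2 or without SW480-NC replicate 1.

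Proprotein convertases cut off the inhibitory prodomain of ADAM and ADAMTS enzymes. PCSK5 had 841, 916 and 949 normalized counts in SW480-45 and 1541, 1513 and 1448 in SW480-NC. Its groups lay far apart, and PCSK5 fell by 0.74 on the log2 scale (SE 0.08, adjusted p = 0.0162 from limma). The adjusted p ranged from 0.0412 to 0.0814 with each library left out and passed in 2 of the 6 fits, without SW480-45 replicate 3 and without SW480-NC replicate 3. FURIN and PCSK7 had log2FC of 0.03 and −0.04.

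TspanC8 tetraspanins carry ADAM10 out of the endoplasmic reticulum. TSPAN5 had 984, 990 and 973 normalized counts in SW480-45 and 1277, 1348 and 1268 in SW480-NC, and its groups did not overlap. Its log2FC was −0.40 (SE 0.08, unadjusted p = 0.000954 and adjusted p = 0.0778 from limma). The other 5 members of this list, TSPAN14 included at −0.04, had no unadjusted p under 0.05, and 4 of them were higher in SW480-45. The iRhoms RHBDF1 and RHBDF2, which carry ADAM17, had log2FC of 0.16 and 0.04, and FRMD8, which stabilises them, had 0.74 (adjusted p = 0.355 from limma). FRMD8 had 1562, 1425 and 1567 normalized counts in SW480-45 and 743, 1741 and 574 in SW480-NC, so that SW480-NC replicate 2 lay above all SW480-45 libraries.

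Tissue inhibitors of metalloproteinases block these enzymes. TIMP1 made up 97.6% of the summed level of the inhibitors with a row, and its log2FC was −0.08 with overlapping groups. TIMP3, the main inhibitor of ADAM17 and of ADAMTS proteoglycanases, was at 0 in 5 libraries and had 5 reads in SW480-NC replicate 3. RECK was at 0 in all SW480-NC libraries and had 7, 0 and 7 reads in SW480-45. Of the enzymes that glycosylate thrombospondin repeats, B3GLCT had log2FC = −0.35 (unadjusted p = 0.0166 and adjusted p = 0.207 from limma) and POFUT2 0.02.

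Besides the EGF family ligands, 16 cell surface substrates of ADAM10 or ADAM17 had a row, among them receptors, adhesion molecules, Notch ligands, chemokines, TNF and APP. They summed to 85665 to 89570 normalized counts in SW480-45 and 100735 to 102994 in SW480-NC. MET made up 29% of this sum. The summed level of the colon epithelial markers, mostly KRT8, was also apart between the lines, with 106664 to 115221 in SW480-45 and 121025 to 127970 in SW480-NC, and its part in the substrates' values was not tested. The 5 markers with a row did not all go one way. KRT8 and EPCAM were lower in SW480-45 and did not overlap, with log2FC of −0.21 and −0.09, KRT19 and CDX2 overlapped, and VIL1, the gene of villin, was higher without overlap. VIL1 had 8921, 9508 and 8854 normalized counts in SW480-45 and 7576, 7606 and 8524 in SW480-NC, with log2FC = 0.20 (unadjusted p = 0.0207 and adjusted p = 0.225 from limma). Of the 14 substrates of this list tested, 11 were lower, 5 had an unadjusted p under 0.05, all lower, and 2 passed the adjusted threshold. IL6R, taken up below, is counted in the 11 and in the 5.

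JAG1, a Notch ligand, had 1266, 1232 and 1224 normalized counts in SW480-45 and 1682, 1750 and 1721 in SW480-NC. JAG1 fell by 0.47 on the log2 scale (SE 0.07, adjusted p = 0.0418 from limma). MET, the receptor of hepatocyte growth factor, had 24022, 23639 and 25047 normalized counts in SW480-45 and 30823, 31857 and 29598 in SW480-NC, and fell by 0.34 (SE 0.05, adjusted p = 0.0408 from limma). Both sets of libraries were well separated. Both genes passed in 0 of the 6 fits without 1 library, with an adjusted p from 0.0718 to 0.159 for JAG1 and from 0.0547 to 0.188 for MET, and in edgeR MET had an adjusted p of 0.0542. CD44, the hyaluronan receptor, had log2FC = −0.25 (adjusted p = 0.0997 from limma), and CXCL16, a membrane-bound chemokine, −0.22 (adjusted p = 0.294 from limma). IL6R, the interleukin-6 receptor, is named in the study's own gene lists, made from these libraries, and so is not independent evidence of a direction. It had 105, 76.8 and 77.3 normalized counts in SW480-45 and 123, 376 and 289 in SW480-NC, with log2FC = −1.46 (adjusted p = 0.138 from limma).

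Of the 6 EGF family ligands tested, which ADAM10 or ADAM17 release, 5 were lower in SW480-45 and 2 had an unadjusted p under 0.05. BTC had 538, 561 and 608 normalized counts in SW480-45 and 814, 785 and 811 in SW480-NC, with log2FC = −0.50 (adjusted p = 0.0679 from limma). TGFA had 3027, 3080 and 3230 in SW480-45 and 3714, 3853 and 3810 in SW480-NC, with log2FC = −0.29 (adjusted p = 0.107 from limma). The groups of BTC and TGFA did not overlap. AREG and EREG, the most abundant of these ligands, had log2FC of −0.02 and −0.18 with overlapping groups.

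Few matrix substrates of ADAMTS enzymes were measured. The proteoglycan cores ACAN and NCAN had means under 10 normalized counts. THBS1, the gene of thrombospondin-1, had 1483, 1572 and 1505 normalized counts in SW480-45 and 1813, 1863 and 2070 in SW480-NC, with log2FC = −0.33 (unadjusted p = 0.00431 and adjusted p = 0.128 from limma). COL1A1, a substrate of the procollagen N-propeptidases through its propeptide, had log2FC = 0.48 (unadjusted p = 0.0458 and adjusted p = 0.297 from limma) with overlapping groups. COL1A1 and VWF are also among the fibroblast and endothelial markers whose sums were higher in SW480-45. The libraries come from a cultured tumour cell line, and why these sums differed was not tested. VWF, the substrate of ADAMTS13, had 12.7, 19.0 and 17.9 normalized counts in SW480-45 and 8.37, 0 and 16.97 in SW480-NC.

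**Figure D4:**
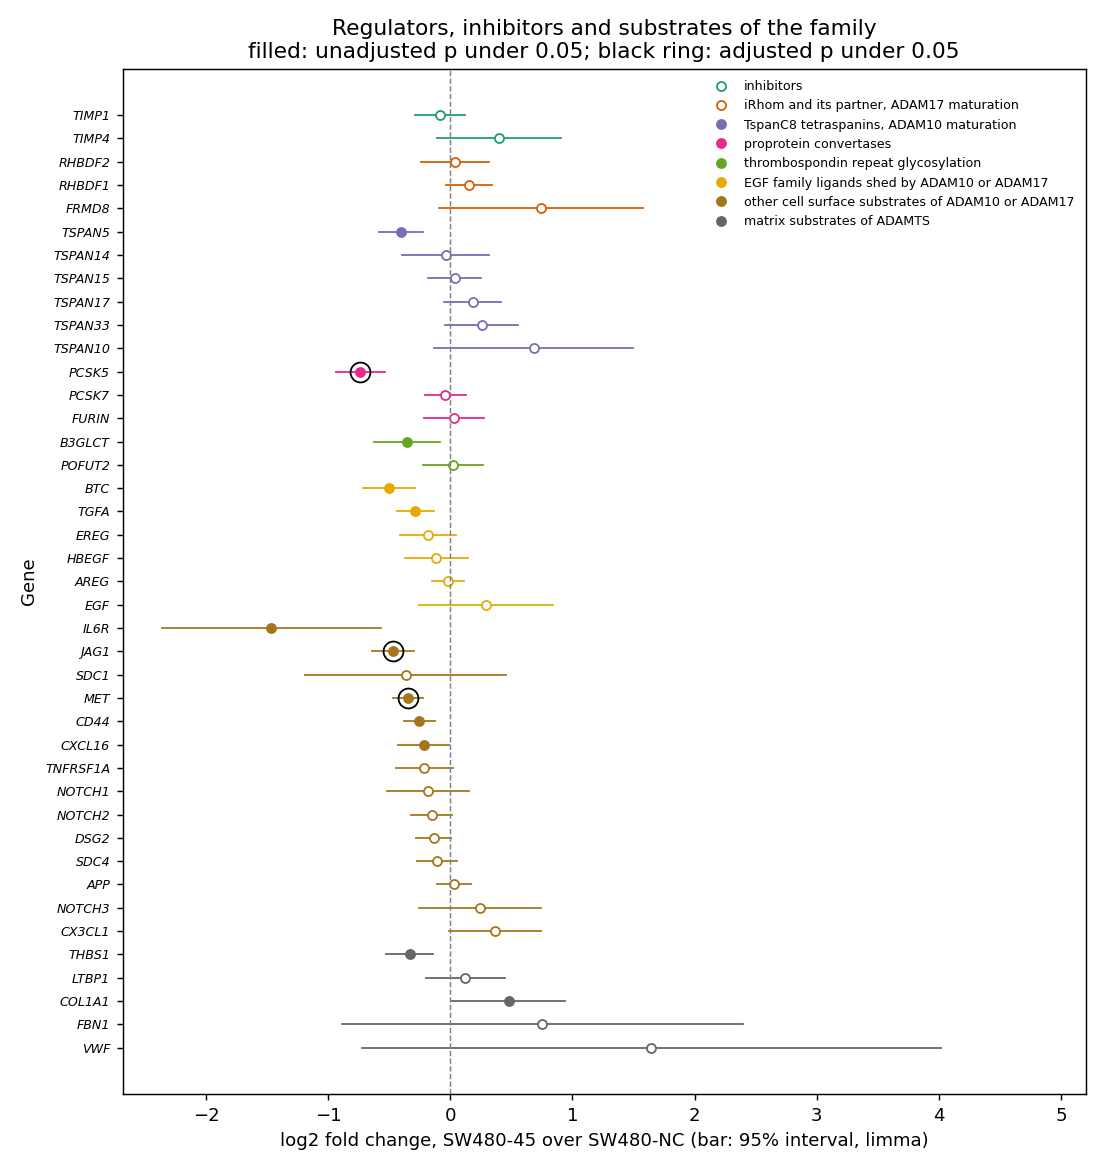
Points are log2FC of SW480-45 over SW480-NC on the x axis and bars are 95% intervals from limma, for the 41 regulators, inhibitors and substrates tested, coloured by list on the y axis. Filled points have an unadjusted p under 0.05, and rings mark PCSK5, JAG1 and MET, the 3 with an adjusted p under 0.05.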

How the data were processed

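The submitters' processing notes name bcl2fastq, HISAT2, DESeq2 and the build GRCh38. The paper names the NEBNext Ultra kit, an Illumina HiSeq and Cuffdiff. The counting tool and annotation are not given in the sources used here. The deposited signal values are gene counts that the authors divided by 1 size factor per library, for 25927 Ensembl identifiers and 33265 assembler loci. Symbols were found for 25595 identifiers. Every value was a whole multiple of 1 step per library (tolerance 0.01), so 100% came out as whole reads. Positions and exon lengths are from GENCODE 29, looked up by identifier.

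limma 3.58.1 (R 4.3.3, intensity trend) was fitted to log2(normalized count + 1). Alternatives were edgeR 4.0.16 and DESeq2 1.42.0 on the recovered reads, other scalings, filters and pseudocounts, the replicate block and leaving out each library. The fits were tested on simulated data, where DESeq2 called more false features than limma and edgeR. Members and lists were chosen with earlier results of these data known. The text names all members tested, the 3 highest of the rest, HPSE, listed partners with an unadjusted p under 0.05, and TIMP3, RHBDF2 and TSPAN14. Further partners, ADAM28, and genes beside or overlapping a member were named after their values were seen.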

Additional observations from a re-analysis of the deposited data

How the results depend on the processing

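No member had an adjusted p under 0.05 in any of the 16 alternatives. Only 9 members were tested when means had to reach 50 normalized counts. The 5 members with a mean under 25 normalized counts had no adjusted p in DESeq2. The members with an unadjusted p under 0.05 numbered 3 without an intensity trend and 3 with the replicate block, and 1 to 4 with each library left out. The median log2 fold change of the members lay between −0.022 and 0.33 in those fits. The features with an adjusted p under 0.05 numbered 11 without an intensity trend, 12 with the replicate block, 756 in DESeq2 and 29 to 93 with each library left out, against 174 as reported. Partners with an adjusted p under 0.05 numbered 0 without a trend, 0 with the replicate block, 1 after quantile normalization, 5 when means had to reach 50 normalized counts, 6 in DESeq2 and 0 to 1 with each library left out. HPSE passed the adjusted threshold with a log2 fold change of −0.83 when all features with any value, those with a mean of at least 50 or Ensembl genes only were tested, and in DESeq2. The direction turned in some genes. With each library left out the log2 fold change ran from −0.0125 to 0.0785 for ADAM9, −0.0287 to 0.35 for ADAM8, −0.0702 to 0.65 for ADAM22, −0.22 to 0.65 for ADAM32, −0.40 to 0.30 for ADAMTSL2, −0.053 to 0.16 for RHBDF2 and −0.14 to 0.11 for TSPAN14, which was 0.0188 after quantile normalization. Why these values moved was not tested. Over all features tested, libraries with the same number did not deviate together (correlations between −0.02 and 0.01). A pairing confined to some of the features was not tested. Members with under 25 normalized counts had 95% intervals 1.57 to 4.38 wide on the log2 scale.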
